A study of Salmo salar with 64 samples.

Results

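Transcripts of 4 genes of the activating arm of the circadian clock were followed in Atlantic salmon: bmal2 (gene number '106561420'), arntl1a ('106561455'), clocka ('106584123') and npas2 ('106567770'). The members were taken by these gene numbers, a choice made with earlier results of these data known, and all 4 were found among the 81574 entries of the count table. Messenger RNA was sequenced from pituitary, ovary, liver and brain of female brood stock of the same age, held in tanks as a single management group. Fish were killed at T2, T3 and T4 during a long-day light regime that brings on maturation, at intervals of 2 weeks, or at T1 just before that regime began. Each tissue and time point had 4 libraries from separate fish, 64 libraries in all. The study sampled 4 fish at each time point, so the tissues of a time point share fish. No group carried a genetic change or received a drug. T1 is a baseline in time, and no fish kept on the earlier light regime were analysed here, so long days, season, growth and maturation cannot be told apart.

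In vertebrates, proteins of the BMAL (ARNTL) family pair with CLOCK or with its relative NPAS2, and the pair binds E-box elements in DNA and switches on target genes. Among those targets are the period and cryptochrome genes, whose proteins feed back to repress the activating pair, and genes for ROR and REV-ERB nuclear receptors, which raise or lower transcription of the BMAL genes. Transcripts of this loop are known to cycle over the day in many tissues, including the liver and pituitary. The hour of sampling is not given in the sources used here, so each value is the level of a transcript at an unstated hour.

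Library totals were 23 to 29 M (mega) counts in pituitary, 18.6 to 30.6 M in ovary, 20.6 to 34.9 M in liver and 17.5 to 51.9 M in brain. The summed markers of each tissue were highest in the tissue of that label. Pituitary hormone genes summed to 151000 to 242000 counts per M counts (CPM) of the library total in pituitary, against 38.4 to 565 CPM in the other tissues. Single hormone genes spread more widely, with prl at 689 to 157000 CPM among the pituitary libraries of T2. Nr5a1b, on the ovary list, went the other way, with 15.1 to 27.2 CPM in pituitary and 2.52 to 2.69 CPM in ovary at T1. Brain stood apart, since the study set it aside for inconsistency among replicates and the summed level of its neuronal and myelin markers snap25a and mbpa ran from 131 to 5450 CPM between libraries. Brain values are therefore given as a description beside the other tissues. In bulk tissue, fewer cells of a type and less RNA per cell cannot be told apart.

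Levels below are scaled CPM, counts per M counts of the library total after multiplying it by the TMM factor. This factor corrects for differences in RNA composition and was calculated once over all 64 libraries. Each test calculated its own factors from the libraries it used. A log2 fold change can therefore differ from the ratio of the levels printed. Ovary bmal2, for example, averaged 31.9 scaled CPM at T1 and 29.8 at T4, with a log2 fold change of 0.02. Whether groups overlap refers to scaled CPM unless another scale is named. Levels are given in the order of replicates 1 to 4, which carries no rank. Because gene length was not corrected for, levels are compared between libraries for 1 gene and never between genes. Time points were compared by edgeR's quasi-likelihood test on counts, fitted to all genes that passed a filter on low counts, and a gene was said to pass at a Benjamini-Hochberg adjusted p below 0.05. SE is the standard error of the log2 fold change. Bmal2, arntl1a and clocka passed the filter in each tissue, and npas2 passed it in pituitary, ovary and brain but not in the liver time comparisons.

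**Figure D1:**
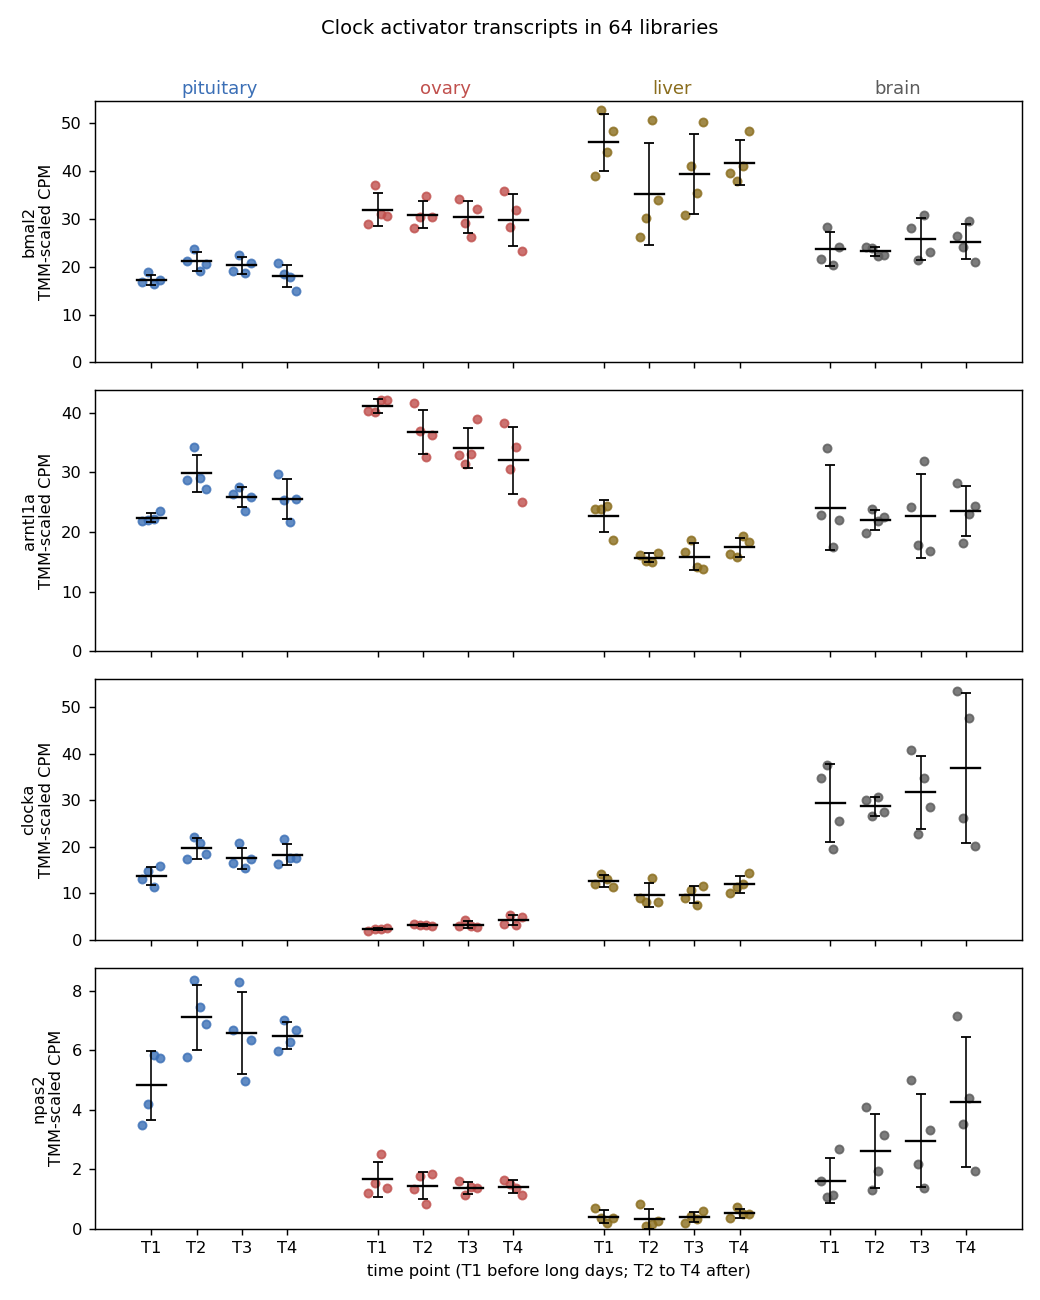
Scaled CPM of bmal2, arntl1a, clocka and npas2 in each of 64 libraries (points), by tissue and time point, with the group mean (wide bar) and SD (error bar, n = 4). Pituitary arntl1a and clocka at T2 lie wholly above T1, and ovary clocka is highest at T4. Liver arntl1a at T2 and T3 lies below T1 on this scale, at T3 by a narrow margin.

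In the pituitary arntl1a and clocka rose at T2. Arntl1a, the teleost counterpart of the main mammalian BMAL gene, had 28.7, 34.3, 29 and 27.3 scaled CPM at T2, against 21.9, 22, 22.1 and 23.6 at T1. All 4 T2 libraries lay above all 4 of T1, and arntl1a was higher by 0.44 on the log2 scale (SE 0.089, adjusted p = 0.0308). Clocka, which encodes a CLOCK protein, had 17.3, 22.2, 20.9 and 18.5 scaled CPM at T2, against 13, 14.9, 11.3 and 15.8 at T1. These groups did not overlap either, with a log2 fold change of 0.55 (SE 0.127, adjusted p = 0.0431). Thus 2 of 4 members passed at T2, where 4.9% of the 31997 genes tested did. Neither reached the fold threshold of the study, an absolute log2 fold change above 1.

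The other members had values in the same direction that did not pass. Bmal2, a second BMAL family member, had 21.1, 23.8, 19.1 and 20.6 scaled CPM at T2, against 16.7, 18.8, 16.4 and 17.3 at T1. The T2 libraries lay just above those of T1, with a log2 fold change of 0.31 (SE 0.0917, adjusted p = 0.0733). It passed in 2 of 16 alternative settings of the processing or of the libraries kept. These were DESeq2, at 0.31, and library totals, at 0.55, a scaling that shifts the median of all genes by 0.23 in this comparison. Npas2, the alternative partner of BMAL, had 5.76, 8.35, 7.44 and 6.88 scaled CPM at T2, against 3.48, 4.21, 5.85 and 5.75 at T1. These groups overlapped, and the log2 fold change of 0.58 carried the largest error of the 4 members (SE 0.194, adjusted p = 0.1).

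The arntl1a and clocka calls in pituitary at T2 did not hold when any 1 of 6 libraries was left out. Arntl1a no longer passed without T2 replicate 2, 3 or 4 or without T1 replicate 1, 2 or 3, with a log2 fold change of 0.36 to 0.48 over the 8 fits that each left out 1 library. Clocka was lost without the same 6 libraries, at 0.46 to 0.62 over its 8 fits. Marker lists of other tissues also differed in these libraries. For liver markers 2 of 2 tested genes were higher at T2 and its summed level was 38.7 to 57.5 CPM of the library total at T2, against 12.2 to 15.2 CPM at T1. Mbpa, the sole brain marker tested, was lower at 2.5 to 6.36 CPM at T2, against 7.5 to 13.2 CPM at T1. On the pituitary list 0 of 5 genes passed, but single hormone genes varied widely between libraries. Prl ran from 689 to 157000 CPM at T2, against 5750 to 74200 CPM at T1. Pomca ran from 16400 to 145000 CPM at T2, against 99500 to 155000 CPM at T1. The part of these in the result was not tested.

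At T3 and T4 no member passed in the pituitary, where 2.49% and 5.59% of genes did. Clocka had 16.4, 21.6, 17.7 and 17.7 scaled CPM at T4, all above the 4 values of T1, with a log2 fold change of 0.44 (SE 0.132, adjusted p = 0.0740). It passed in 5 of 16 alternative settings, among them the exact test and DESeq2, both at 0.44, and the fit without T4 replicate 1, at 0.50. On library totals it passed at 0.70, with the median of all genes shifted by 0.24. Limma-trend, where it passed at 0.64, used the deposited log2 values, which are on that same scale without a scaling factor. Arntl1a had 26.4, 27.6, 23.6 and 25.8 scaled CPM at T3, where the lowest value, 23.64, lay just above the highest T1 value of 23.56. Its log2 fold change was 0.23 (SE 0.082, adjusted p = 0.137). Bmal2 stood at 0.25 (SE 0.0939, adjusted p = 0.153) at T3 and 0.09 (SE 0.106, adjusted p = 0.628) at T4, both with overlap of the groups. Npas2 had 5.96, 7, 6.29 and 6.69 scaled CPM at T4, just above the highest T1 value of 5.85, at a log2 fold change of 0.45 (SE 0.18, adjusted p = 0.147).

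**Figure D2:**
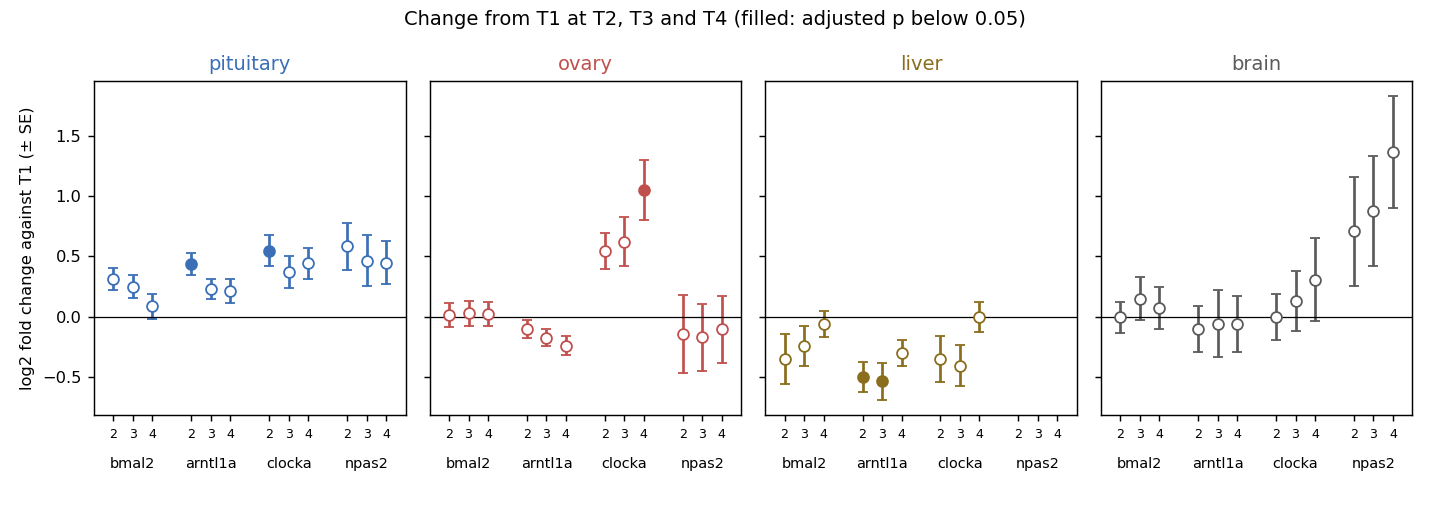
Log2 fold change against T1 (vertical axis, error bars ± SE) of the 4 members at T2, T3 and T4 (ticks 2, 3 and 4) in each tissue, with filled points where the adjusted p was below 0.05. Filled points are arntl1a and clocka at T2 in pituitary, clocka at T4 in ovary, and arntl1a at T2 and T3 in liver, and liver npas2 was not tested.

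In the ovary clocka rose at T4 while neither bmal2 nor arntl1a passed. Clocka had 3.49, 5.36, 3.3 and 4.93 scaled CPM at T4, against 2, 2.3, 2.28 and 2.62 at T1. All T4 libraries lay above all T1 libraries, with a log2 fold change of 1.05 (SE 0.247, adjusted p = 0.0224). It was the sole member to pass there, 1 of 4 where 21.3% of 31619 genes passed, and in the comparisons of time points within a tissue the sole call of a member beyond the fold threshold of the study, which 11.1% of genes met in that comparison. Meeting that threshold depended on scaling. Mean scaled CPM, 4.27 at T4 and 2.30 at T1, falls short of it, while mean CPM of the library total, 6.63 and 3.17, exceeds it. At T2 and T3, clocka values also lay wholly above T1, at 3.36, 3.28, 3.18 and 3.06 scaled CPM at T2 and 3.08, 4.33, 3.08 and 2.72 at T3. The log2 fold changes against T1 were 0.54 (SE 0.151, adjusted p = 0.0699) at T2 and 0.62 (SE 0.202, adjusted p = 0.0918) at T3, and neither passed. DESeq2 called both, as the only 1 of 16 alternative settings to do so at each.

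Ovary clocka rested on modest counts, 126 to 232 per library at T4, against 83 to 102 at T1. Its T4 call was lost without T4 replicate 2 or without T1 replicate 1, 2 or 3, with a log2 fold change of 0.90 to 1.18 over 8 fits that each left out 1 library. Leukocyte markers moved with it: ptprc and cd74a, the 2 listed markers that were found by symbol, were both higher at T4 and at T3. Their summed level was 451 to 2150 CPM of the library total at T4, against 117 to 241 CPM at T1, with a median log2 fold change of 2.80 at T4. Also at T4, 1 of 1 tested blood marker was higher (log2 fold change 1.87), 1 of 1 tested brain marker was lower (-0.93), and 2 of 5 ovary markers were higher with a median of -0.09 over the 5. That median covers a split. Nr5a1b had 7.75 to 13.4 CPM of the library total at T4, against 2.52 to 2.69 at T1, and amh 503 to 717, against 224 to 417. Gdf9, bmp15 and figla overlapped their T1 ranges. The part of these markers in the clocka result was not tested.

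Ovary arntl1a went the other way in value. It had 38.3, 30.5, 34.3 and 25 scaled CPM at T4, against 40.3, 40.1, 42.2 and 42.2 at T1. On this scale all T4 values were below all T1 values. As CPM of the library total the groups overlapped, with a highest T4 value of 55.1 and a lowest T1 value of 53.9. The log2 fold change of -0.24 (SE 0.0772) did not pass, at an adjusted p of 0.0530. It did pass in 4 of 16 alternative settings. These were RLE scaling, DESeq2 and a fit of all 16 ovary libraries, at -0.26, -0.26 and -0.27, and the fit without T4 replicate 1, at -0.31. At T3 arntl1a had 33, 31.4, 33.1 and 38.9 scaled CPM, again below T1 on this scale but not on library totals, where replicate 4 had 57.3 CPM. The log2 fold change at T3 was -0.18 (SE 0.0699, adjusted p = 0.149). Bmal2 was close to its T1 level, at log2 fold changes of 0.01 (SE 0.0978) at T2, 0.03 (SE 0.102) at T3 and 0.02 (SE 0.0975) at T4, all with overlapping groups. Npas2 was low, 0.845 to 2.53 scaled CPM from 29 to 92 counts per library, with log2 fold changes of -0.14 (SE 0.322), -0.17 (SE 0.278) and -0.11 (SE 0.28) at T2, T3 and T4. No member passed in ovary at T2 or T3, where 4% and 5.68% of genes passed.

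In the liver arntl1a fell. It had 16.2, 15.2, 14.9 and 16.4 scaled CPM at T2, against 23.9, 23.8, 24.4 and 18.6 at T1. The groups did not overlap, and the log2 fold change was -0.50 (SE 0.124, adjusted p = 0.0128). At T3 it had 16.7, 18.6, 14.2 and 13.8 scaled CPM, with the highest of them just below the lowest T1 library, and a log2 fold change of -0.54 (SE 0.153, adjusted p = 0.0344). As CPM of the library total both time points overlapped T1. The highest values were 9.71 at T2 and 9.38 at T3, and the lowest T1 value was 9.2. Among the genes tested in liver, 33.6% passed at T2 and 19.5% at T3, so a call for 1 of 3 tested members stands on a high background in that tissue.

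Both liver calls depended on the processing. Arntl1a at T2 passed in all 8 fits that each left out 1 library, and did not pass on library totals without a scaling factor, at -0.35, or in limma-trend on the deposited log2 values, at -0.32. The deposited values carry no scaling factor either, so these 2 settings share a scale. At T3 it was lost without T3 replicate 3 or 4 or T1 replicate 1, 2 or 3, with -0.62 to -0.45 over 8 fits, and with no filter on low counts, at -0.52. Among marker lists in liver, 1 of 2 tested ovary markers was lower at T2, and at T3 both were lower (median log2 fold change -2.18), 2 of 5 pituitary markers were higher (summed level 418 to 565 CPM, against 126 to 243 CPM at T1) and 1 of 3 liver markers was higher (median 0.50), and their part in the arntl1a result was not tested. At T4 arntl1a had 16.3, 15.8, 19.3 and 18.3 scaled CPM, overlapping T1, and its log2 fold change of -0.30 (SE 0.108, adjusted p = 0.0565) did not pass, where 32.8% of genes did. It passed in 3 of 17 alternative settings, under RLE scaling and in DESeq2, both at -0.35, and without T1 replicate 4, at -0.38.

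Liver bmal2 and clocka shared 1 high library at T2. Bmal2 had 26.2, 30.2, 50.6 and 34 scaled CPM at T2, against 38.9, 52.7, 44.1 and 48.3 at T1. Clocka had 9.1, 8.12, 13.4 and 8.08 scaled CPM at T2, against 12, 14.1, 13.2 and 11.3 at T1. In both genes T2 replicate 3 lay within the T1 range while the other T2 libraries lay below it. The log2 fold changes were -0.35 (SE 0.209, adjusted p = 0.227) for bmal2 and -0.35 (SE 0.193, adjusted p = 0.189) for clocka. Without that library both passed, at -0.55 and -0.52, the only 1 of 16 alternative settings in which either did. That library stood out by these same values, so the fit without it is a description. At T3 the log2 fold changes were -0.24 (SE 0.163) and -0.41 (SE 0.17), and at T4 -0.06 (SE 0.108) and 0.00 (SE 0.123), none of which passed. Liver npas2 had 1 to 16 counts per library, 0.0838 to 0.821 scaled CPM, which is too few to follow over time.

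Steps between later time points gave no member that passed, in any tissue. The share of all genes that passed was 0% for T3 against T2 and 0.056% for T4 against T3 in pituitary, 0.00637% and 0% for these steps in ovary, and 0% and 1.81% in liver. Arntl1a in pituitary at T3 against T2 stood at -0.21 on the log2 scale (SE 0.0964, adjusted p = 1), and liver clocka at T4 against T3 stood at 0.39 (SE 0.172, adjusted p = 0.211). In edgeR at an unadjusted p below 0.05, 1290 of 32195 pituitary genes passed for T3 against T2, 1197 of 31781 ovary genes for T4 against T3 and 3314 of 25486 liver genes for T3 against T2, and liver clocka at T4 against T3 was the sole member to do so for a step in these 3 tissues, in a comparison where 6206 of 26426 genes (23.5%) did.

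In brain no member passed. The shares of genes that passed were 0%, 0% and 0% for T2, T3 and T4 against T1, 0% for T3 against T2 and 0.0789% for T4 against T3. At an unadjusted p below 0.05 in edgeR, 5249 (15%), 867 (2.52%) and 1736 (5.07%) of the genes tested passed for T2, T3 and T4 against T1. For T3 against T2, 2715 (7.85%) did. Among the 12 tests of members against T1, npas2 at T4 was the sole such value, near these shares. No alternative, DESeq2 included, called a member in brain or for a step between later time points. Npas2 had the largest change in value of any member in these data, with 7.16, 3.53, 4.39 and 1.94 scaled CPM at T4, against 1.6, 1.06, 1.13 and 2.68 at T1. The groups overlapped through T4 replicate 4 and T1 replicate 4, and the log2 fold change of 1.37 (SE 0.463) had an adjusted p of 0.936. Clocka spread from 20.3 to 53.5 scaled CPM within T4 alone. The other ranges over 16 brain libraries were 20.4 to 30.8 scaled CPM for bmal2 and 16.8 to 34.1 for arntl1a.

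Whether the change from T1 differed between tissues was tested as contrasts in 1 edgeR fit over the 48 libraries of pituitary, ovary and liver. The fit took all libraries as independent, although tissues share fish, and its SE and p-values do not allow for that. The change in pituitary exceeded that in liver at T2. The pituitary change minus the liver change was 0.96 on the log2 scale for arntl1a (SE 0.161, adjusted p = 2.76e-05), 0.92 for clocka (SE 0.235, adjusted p = 0.00428) and 0.69 for bmal2 (SE 0.211, adjusted p = 0.0188). Npas2 stood at 0.74 (SE 0.549, adjusted p = 0.414) and did not pass. It entered this fit only through the other tissues, since its liver counts were too low to test, so that value is a description. So 3 of 4 members passed where 17% of 38135 genes did. At T3 the difference was 0.74 for arntl1a (SE 0.161, adjusted p = 0.00184) and 0.75 for clocka (SE 0.235, adjusted p = 0.0357), 2 of 4 members where 9.23% of genes passed. At T4 it was 0.58 for arntl1a (SE 0.159, adjusted p = 0.0154), 1 of 4 where 9.91% passed.

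The arntl1a differences between pituitary and liver at T2 and T3 passed in all 10 alternative settings that kept the adjusted p as the call rule. Leaving out the libraries of 1 replicate number at a time, clocka at T2 was lost without number 2 (0.79), bmal2 at T2 without number 1, 2 or 4 (0.64, 0.55 and 0.66), clocka at T3 without number 1, 2 or 3 (0.76, 0.73 and 0.62) and arntl1a at T4 without number 1 or 2 (0.43 and 0.51). These 3 contrasts share their T1 libraries with one another and with the comparisons within each tissue.

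Ovary clocka also parted from liver clocka. The ovary change minus the liver change of clocka was 0.88 at T2 (SE 0.242, adjusted p = 0.00635), 0.91 at T3 (SE 0.242, adjusted p = 0.00676) and 0.97 at T4 (SE 0.239, adjusted p = 0.00261). At each time point clocka was the sole member to pass, where 21.2%, 16.5% and 23.2% of genes did. Npas2 could not be judged here, since its liver counts were too low. Clocka was lost without number 1 or 2 at T2 (0.80 and 0.74) and at T3 (0.88 and 0.77), and without number 2 at T4 (0.76). Between ovary and pituitary, arntl1a was the sole member to pass, at T4, with a difference of -0.56 (SE 0.156, adjusted p = 0.0209) where 7.41% of genes passed, and it was lost without number 1, 2 or 4 (-0.57, -0.55 and -0.48). At T2 and T3 no member passed between ovary and pituitary, where 0.522% and 1.41% of genes did. For clocka that difference was 0.47 (SE 0.234, adjusted p = 0.236) at T4, so the rise in ovary was not shown to differ from the change in pituitary.

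Levels at T1 were compared between tissues in 1 fit of the 16 T1 libraries, which also took tissues that share fish as independent. Bmal2 averaged 46.0 ± 5.88 scaled CPM in liver, 31.9 ± 3.50 in ovary, 23.6 ± 3.54 in brain and 17.3 ± 1.09 in pituitary (SD, n = 4 each), and each of the 6 pairs of tissues differed, with adjusted p from 8.38e-08 to 0.00754. Pituitary against brain was lost without the libraries of number 4, at -0.40. Arntl1a averaged 41.2 ± 1.15 in ovary, 24.1 ± 7.08 in brain, 22.7 ± 2.71 in liver and 22.4 ± 0.787 in pituitary. The ovary was above each other tissue by 0.85 to 0.94 on the log2 scale (adjusted p from 2.69e-05 to 6.28e-05), and the other 3 tissues did not differ beyond their spread (adjusted p from 0.643 to 0.914).

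The CLOCK family members had other orders. Clocka averaged 29.4 ± 8.39 scaled CPM in brain, 13.8 ± 2.03 in pituitary, 12.7 ± 1.26 in liver and 2.30 ± 0.255 in ovary. Brain was above pituitary, with pituitary against brain at -1.07 on the log2 scale (SE 0.174, adjusted p = 9.31e-05), liver and pituitary did not differ beyond their spread (-0.12, SE 0.175, adjusted p = 0.572), and ovary was far below liver, at -2.40 (SE 0.186, adjusted p = 6.53e-09). Npas2 averaged 4.82 ± 1.16 scaled CPM in pituitary, 1.66 ± 0.598 in ovary, 1.62 ± 0.748 in brain and 0.408 ± 0.209 in liver. Pituitary was above brain by 1.58 (SE 0.379, adjusted p = 0.00238), and ovary and brain did not differ beyond their spread (0.10, SE 0.374, adjusted p = 0.81). Liver npas2 had 2 to 7 counts per library and passed the filter only through the other tissues. Its value of -1.97 against brain (SE 0.449) is therefore a description. Thus the ovary held the highest level of arntl1a and the lowest level of clocka among the 4 tissues at T1.

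These differences between tissues stand against a high background, since 55.3% of 37043 genes passed for pituitary against brain, 78.6% for ovary against pituitary, 65.5% for liver against pituitary, 82.1% for ovary against brain, 70.8% for liver against brain and 75.5% for ovary against liver. They also depend on scaling, because the TMM factors were 0.43 to 0.656 in liver, 0.854 to 1.27 in pituitary, 1.11 to 1.4 in brain and 1.35 to 1.68 in ovary. As CPM of the library total, bmal2 averaged 44.0 ± 4.37 CPM in ovary, 29.3 ± 4.67 in brain, 21.7 ± 2.62 in liver and 15.8 ± 1.13 in pituitary (SD, n = 4 each), which moves liver below ovary and brain. Arntl1a averaged 10.7 ± 1.05 CPM in liver on that scale, below 20.5 ± 1.49 in pituitary, with a log2 fold change of -0.93, and also below brain (-1.48), while pituitary was below brain (-0.55). Clocka averaged 5.97 ± 0.38 CPM in liver and 12.5 ± 1.78 in pituitary. Under library totals the median of all genes was shifted by -0.94 for liver against pituitary. The lowest place of clocka in ovary, the highest place of arntl1a in ovary and the lowest place of npas2 in liver held on both scales.

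**Figure D3:**
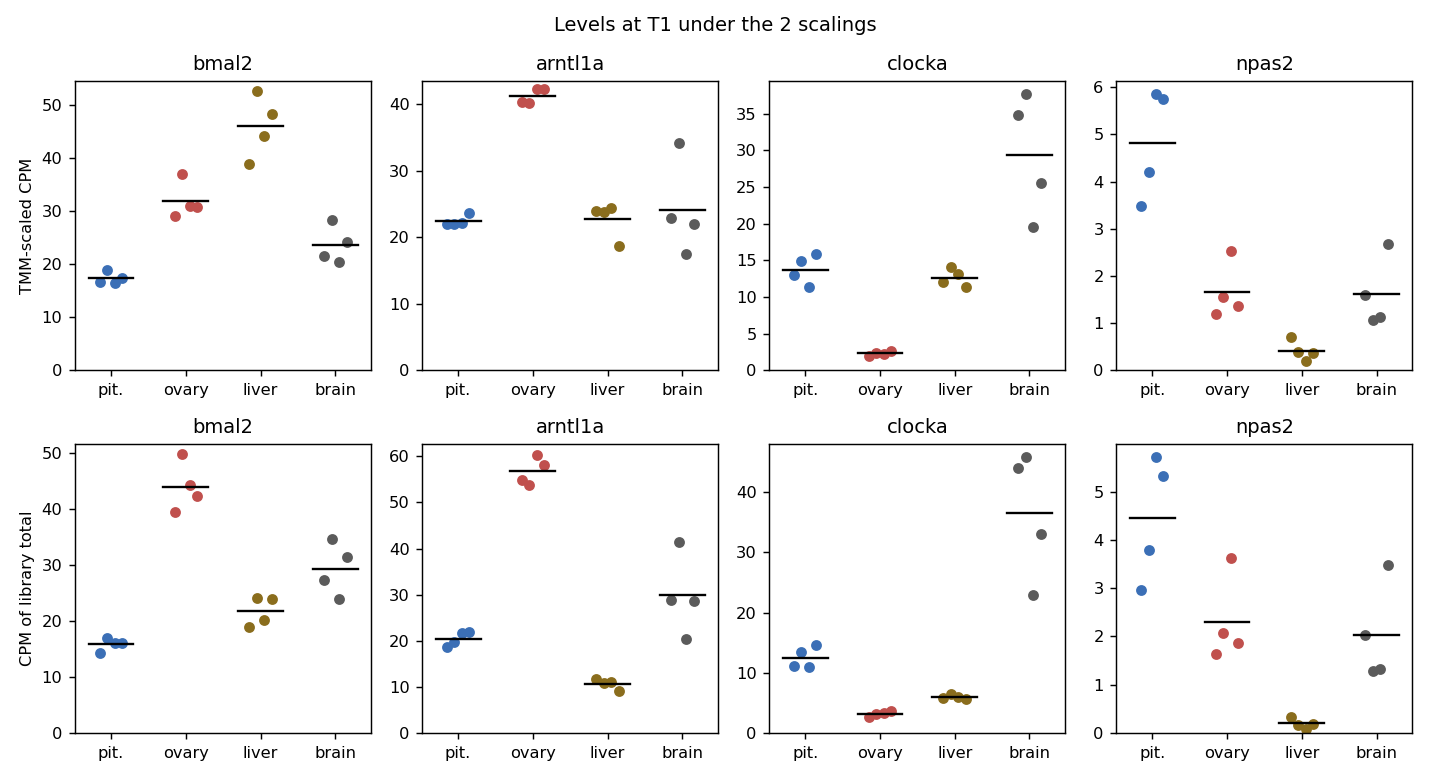
Levels of the 4 members at T1 in pituitary, ovary, liver and brain as scaled CPM (upper row) and as CPM of the library total (lower row), with 1 point per library and a bar at the mean of 4. Bmal2 in liver is the highest of the 4 tissues in the upper row and below ovary and brain in the lower row, while clocka is lowest in ovary in both.

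Over 16 group means, each taken on the log2 scale relative to the mean of its tissue, bmal2 and arntl1a had the most similar profile among the 3 members with usable counts in all tissues (Pearson r = 0.79). Bmal2 and clocka had r = 0.41 and arntl1a and clocka r = 0.16. These points share libraries and scaling factors, so r is a description. Among 19824 genes at a mean of at least 1 CPM in each tissue, the profile most like bmal2 was that of LOC106586781 (r = 0.89), LOC106595670 (0.87) and usp11 (0.86), a gene for a deubiquitinating enzyme. For arntl1a it was LOC106608786 (0.93), gene 106606573 (0.92) and LOC106604956 (0.91), and for clocka LOC106574260 (0.93), LOC106580184 (0.92) and LOC106583020 (0.92). No such genes are named for npas2, because 4 of its 16 points are liver means from 1 to 16 counts per library.

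Covariation across fish was measured on 16 libraries per tissue as deviations from the time point mean, with p-values from permutations within time points. Of 48 relations none passed after Benjamini-Hochberg adjustment, by Pearson's r or Spearman's rho, and 6 were below an unadjusted p of 0.05 by each measure. The largest were between bmal2 and clocka, in liver with r = 0.76 (permutation p = 0.0101, adjusted p = 0.243) and rho = 0.62 (permutation p = 0.034, adjusted p = 0.33), and in brain with r = 0.76 (permutation p = 0.00903, adjusted p = 0.243) and rho = 0.79 (permutation p = 0.00894, adjusted p = 0.33). Without the 2 libraries farthest from the median of bmal2, r was 0.52 in liver and 0.78 in brain. Of the 24 relations between pairs of members within a tissue 17 were positive, with a median r of 0.26, and 3 of these relations use liver npas2 at its low counts. These values depended on scaling: on log2(CPM + 1) of library totals 20 were positive with a median r of 0.43, and the 6 pituitary pairs had r of 0.71 to 0.82, where on scaled CPM they had 0.17 to 0.55. For 1 member between 2 tissues, matched by the replicate number, 11 of 24 were positive with a median r of -0.04.

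The other clock genes with a symbol were 15, of which 13 to 14 were tested in a tissue, and the list was chosen by name. It holds no further BMAL, CLOCK or NPAS2 gene, so other copies of the activators were not followed. The alternatives were run for the 4 members only, so calls of these other genes were not checked for dependence on processing or single libraries. In pituitary 3 rose and 0 fell at T2, 2 rose at T3 and 1 rose at T4, with medians of 0.10, 0.06 and 0.05 on the log2 scale beside all-gene medians of 0.00, -0.01 and 0.01 and with 4.9%, 2.49% and 5.59% of all genes past the test. In ovary 0 passed at T2, 2 rose at T3 and 5 rose at T4 with 0 lower, and the medians were 0.36, 0.22 and 0.39 beside -0.01, 0.01 and 0.01 for all genes, of which 4%, 5.68% and 21.3% passed. In liver 2 rose and 4 fell at T2, 0 rose and 1 fell at T3, and 2 rose and 2 fell at T4, with medians of -0.19, -0.09 and -0.02 beside 0.00, -0.01 and 0.06 for all genes, of which 33.6%, 19.5% and 32.8% passed, so the liver counts at T3 and T4 are no higher than the background. In brain none of 14 passed against T1, and at an unadjusted p below 0.05 in edgeR 0, 0 and 1 of them did at T2, T3 and T4. For the ovary at T2 that unadjusted count was 4 of 14, where 26.1% of all genes were below it.

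Among period genes, which encode repressors of the activating pair, per2 rose in pituitary at T2, T3 and T4. It had 19.2, 51.2, 40 and 27.9 scaled CPM at T2, against 12.1, 10.5, 15.7 and 13 at T1, a log2 fold change of 1.46 (SE 0.274, adjusted p = 0.0258). All T2 libraries lay above T1, and per2 also passed at T3 (1.29, SE 0.183, adjusted p = 0.0108) and at T4 (1.07, SE 0.16, adjusted p = 0.0178). In liver per2 rose at T2 (0.62, SE 0.121, adjusted p = 0.00415) and T4 (0.65, SE 0.0892, adjusted p = 0.00186), while per1b fell at T2 (-0.67, SE 0.121, adjusted p = 0.00282), T3 (-0.38, SE 0.105, adjusted p = 0.0294) and T4 (-0.43, SE 0.139, adjusted p = 0.0419). Per3 fell to 13.4, 12.4, 15 and 8.17 scaled CPM in liver at T2, against 34.3, 31.5, 25.4 and 23.4 at T1, with a log2 fold change of -1.19 (SE 0.203, adjusted p = 0.00218), and it was lower at T4 (-0.46, SE 0.135, adjusted p = 0.0278).

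Bhlhe40 and bhlhe41, which encode DEC repressors that compete for E-boxes, rose in ovary alongside clocka. Bhlhe41 had 1.16, 3.23, 0.838 and 5.03 scaled CPM at T4, against 0.385, 0.499, 0.385 and 0.488 at T1, from 32 to 202 counts at T4 and 14 to 20 at T1. Its log2 fold change was 2.75 (SE 0.61, adjusted p = 0.0198) at T4 and 1.74 (SE 0.401, adjusted p = 0.0414) at T3. Bhlhe40 was higher by 1.75 at T4 (SE 0.437, adjusted p = 0.0256) and 1.12 at T3 (SE 0.279, adjusted p = 0.0487). It had 4.27, 6.09, 4.69 and 13.5 scaled CPM at T4, against 1.68, 2.37, 2.56 and 3.11 at T1, with replicate 4 far above the rest at T4. The leukocyte marker sum given above for ovary rose at T4. At T3 that sum was 236 to 648 CPM of the library total, which overlapped 117 to 241 CPM at T1, although both markers passed as higher. The part of these markers was not tested.

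Rorca, a gene for a ROR receptor, the class that activates BMAL transcription, had 76.5, 97.5, 78.5 and 62.2 scaled CPM in pituitary at T2, against 50.8, 45.1, 58.1 and 47.1 at T1. It passed at T2 (0.67, SE 0.141, adjusted p = 0.0327) and T3 (0.62, SE 0.107, adjusted p = 0.0222), and stood at 0.13 (SE 0.125, adjusted p = 0.526) at T4. In ovary rorca passed at T4 (1.27, SE 0.255, adjusted p = 0.0167). Tef, which encodes a bZIP factor that acts on clock output genes, rose in liver at T2 (0.53, SE 0.171, adjusted p = 0.0372) and T4 (0.49, SE 0.134, adjusted p = 0.0218). It also rose in pituitary at T2 (0.40, SE 0.0856, adjusted p = 0.0332) and in ovary at T4 (0.46, SE 0.0899, adjusted p = 0.0160). In liver, therefore, arntl1a, per1b and per3 were lower at T2, as were roraa, another ROR receptor gene, and nfil3, another bZIP factor gene. Per2 and tef were higher, so the clock genes there did not all move in the same direction.

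**Figure D4:**
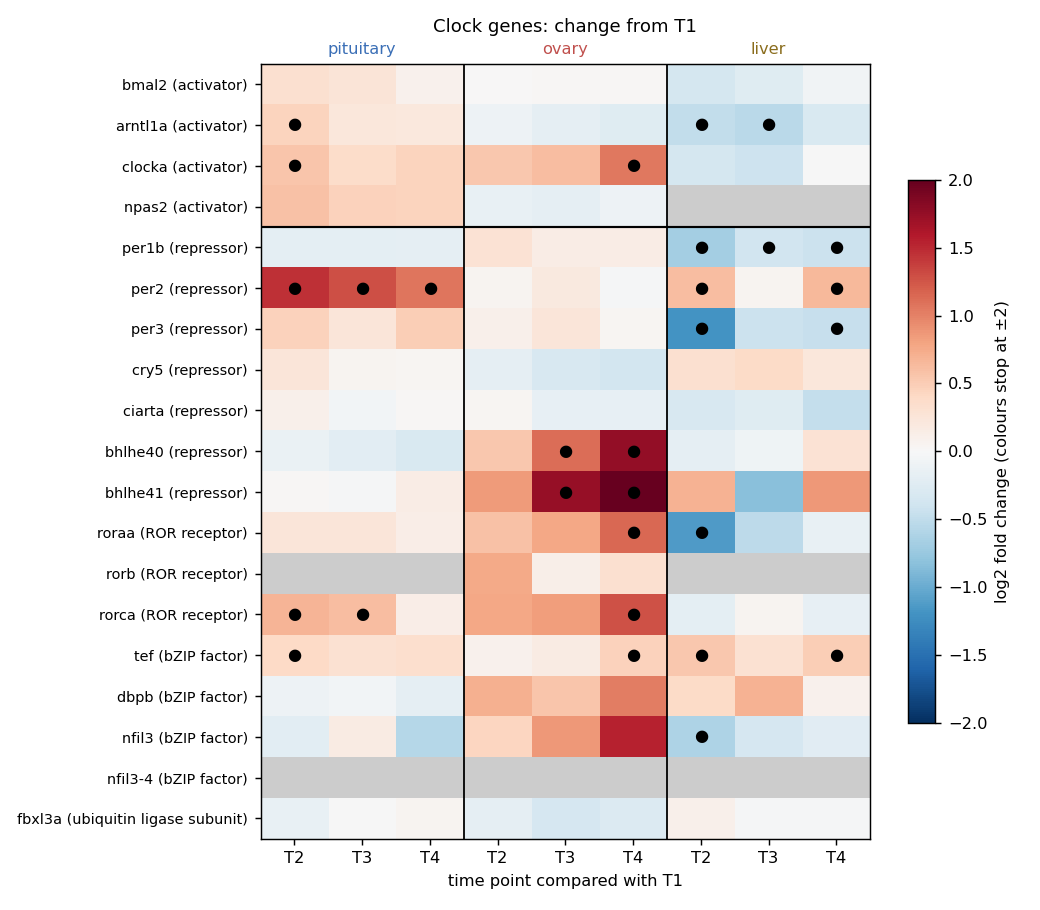
Log2 fold change against T1 (colour, red higher and blue lower, limits at ±2) of the 4 activators (above the line) and 15 other clock genes in pituitary, ovary and liver at T2, T3 and T4. A dot marks an adjusted p below 0.05 and grey a gene that was not tested, with per2 red and dotted in pituitary throughout, bhlhe40 and bhlhe41 in ovary at T3 and T4, and per1b blue and dotted in liver throughout.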

How the data were processed

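The authors aligned read pairs with TopHat2 2.1.1 against salmon assembly ICSASG_v2, and HTSeq 0.7.2 then counted reads that fell uniquely on exons, with its strand option at reverse. The deposited count table holds whole-number counts of 81574 entries, 33025 of them 0 in all 64 libraries, with no pooling. A further deposited table gives 46064 genes on the log2 scale, with values that equal log2(CPM + 1) within 3.71e-05. Unique counting drops reads shared with near-identical copies, which the salmon genome holds in number, so levels of duplicated genes are uncertain to that extent. Symbols came from the RefSeq table of Ssal_v3.1, another assembly, so no coordinates are given.

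Counts were tested with edgeR 4.0.16 in R 4.3.3 (filterByExpr, TMM, quasi-likelihood F test) on the 8 libraries of each comparison, with p-values adjusted over all genes tested. Contrasts between tissues used 1 fit of 48 libraries and T1 levels 1 fit of 16, both without a term for the fish. The study's fold threshold was kept as an alternative. Other alternatives were RLE scaling, library totals (chosen after seeing the data), DESeq2 1.42.0, the exact test, limma-trend (limma 3.58.1), no filter, a replicate block, a fit of all 16 libraries of a tissue, only the groups compared, summed liver T4 pairs, and leaving out libraries. Limma-trend used the deposited log2 values, which are on the library-total scale. The tests were tested on simulated data. Correlations used 100000 permutations. Members are named throughout, other clock genes if they passed in at least 2 comparisons against T1 in 1 tissue, and the 3 most similar profiles per member, except for npas2, whose liver counts were too low. Roraa and nfil3, which passed in liver at T2, are named as well. Members and lists were chosen with earlier results of these data known. P-values measure the spread between the fish sampled.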

Additional observations from a re-analysis of the deposited data

Results flagged for a closer look

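In 2 of 64 groups of 4 libraries, 1 library lay apart by Dixon's test, and chance flags about 1 in 20 groups. Arntl1a in liver T1 replicate 4 had 18.6 scaled CPM, where the group reached 24.4. Arntl1a in pituitary T1 replicate 4 had 23.6 scaled CPM, where the lowest of the group was 21.9.

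The change from T1 differed between tissues in 10 contrasts of the members (edgeR, adjusted over all genes). Pituitary minus liver, the log2 difference was 0.96 for arntl1a, 0.92 for clocka and 0.69 for bmal2 at T2, 0.74 for arntl1a and 0.75 for clocka at T3, and 0.58 for arntl1a at T4. Ovary minus liver, it was 0.88 for clocka at T2, 0.91 at T3 and 0.97 at T4. Ovary minus pituitary, it was -0.56 for arntl1a at T4.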

How the results depend on the processing

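Each count of members that passed was recomputed under the alternatives, 501 counts in all, and 70 moved. A change that was small beside the count itself, such as from 2 to 3, was not taken as a move, so more counts than these 70 differed. At T2 in pituitary the count was 2, and it was 3 on library totals and in DESeq2, where bmal2 also passed, 0 with the replicate block, where arntl1a and clocka were both lost, and 0 to 2 without 1 library. At T4 in pituitary 0 passed, against 2 on library totals, 1 in the exact test, 1 in DESeq2, 2 in limma-trend and 0 to 1 without 1 library. In ovary DESeq2 passed 1 at T2, 1 at T3 and 2 at T4, and the T4 count of 1 was 2 under RLE scaling, 2 in the fit of all 16 libraries and 0 to 2 without 1 library. In liver the T2 count of 1 was 0 on library totals, 0 in limma-trend and 1 to 3 without 1 library, the T3 count of 1 was 0 with no filter and 0 to 1 without 1 library, and at T4, where 0 passed, RLE scaling and DESeq2 gave 1 each and leaving out 1 library 0 to 1.

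For ovary minus pituitary, 0 passed at T2 and T3. Library totals gave 1 at T2, and DESeq2 and the fit of only the 4 groups compared gave 1 at both. For ovary minus liver at T2 RLE scaling and DESeq2 gave 2. Without the libraries of 1 number, the members that passed for ovary minus liver numbered 0 to 2 at T2 and 0 to 1 at each later time point. For pituitary minus liver they numbered 1 to 3 (T2), 1 to 2 (T3) and 0 to 1 (T4), and 0 to 1 at T4 for ovary minus pituitary. The threshold with an absolute log2 fold change above 1 left 0 members in pituitary T2, liver T2, liver T3 and each contrast between tissues, and 2, 1 and 2 members for ovary against pituitary, brain and liver at T1. Library totals gave 4 for liver against pituitary at T1, where TMM scaling gave 2, and turned 3 differences at T1: arntl1a in liver against pituitary to -0.93, bmal2 in liver against brain to -0.43 and bmal2 in ovary against liver to 1.02. In those 3 comparisons library totals, which leave out the TMM factor, shifted the median of all genes by -0.94, -1.39 and 1.44. The cause of the other changes in counts was not tested. Counts against liver at T1 include npas2, which had too few counts there for a test.

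Library totals shifted the median of all genes by 0.22 to 0.24 on the log2 scale in pituitary at T2 to T4 against T1, by 0.15 in liver at T2 and by 0.20 at T4. Same-numbered libraries correlated by over 0.1 in every pair in 1 of 20 sets within a tissue and 8 of 24 between tissues. Between tissues every such correlation was positive at T1 and T2 (lowest 0.00507), while at T3 and T4 some were negative (lowest -0.272). Tissues of a time point share fish, but the numbers are not shown to say which. Beside the pituitary T2 count the replicate block moved none of the 35 counts. Depth limits npas2 in liver, at 1 to 16 counts per library.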
